A study of Homo sapiens with 16 samples.

Results

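Wnt ligands, their Frizzled receptors and the Wnt feedback gene AXIN2 were followed in 3D cultures of a breast carcinoma in situ cell line. The 10 genes, taken by symbol from the 78894 genes of the deposited table, were the ligands WNT4, WNT5A, WNT5B, WNT7A, WNT7B and WNT10A, the receptors FZD6, FZD7 and FZD10, and AXIN2. Wnt ligands are secreted lipid-modified glycoproteins that bind Frizzled receptors. With the co-receptors LRP5 and LRP6 they stop the destruction complex of Axin, APC and GSK3 from degrading beta-catenin, which then acts with TCF and LEF proteins on target genes such as AXIN2, while ligands such as WNT5A are better known for signalling through ROR and RYK receptors and the planar cell polarity proteins without beta-catenin. In the mouse mammary gland, Wnt4 acts downstream of progesterone and Wnt5a has been placed downstream of TGF-beta.

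The cells were MCF10DCIS.com, a human basal-like line derived from MCF10A that models ductal carcinoma in situ, and all of them descended from 1 knockout clone, PCSK5-/-. PCSK5 encodes a proprotein convertase, which matures secreted proteins by cutting them; the GDF11 precursor is among its substrates. GDF11 belongs to the TGF-beta superfamily of secreted ligands. There were 4 conditions with 4 wells each. T288P+GDF11 wells held cells with the T288P allele of PCSK5 added back and were given 250 ng/ml of recombinant mature GDF11 during the whole culture. T288P wells held the same line, M452I wells held cells with the M452I allele, and WT wells held cells with wild-type PCSK5, all without added GDF11. The added alleles carried a V5 tag and were under tetracycline control, which doxycycline (1 µg/ml) switched on from day 4 in all 16 wells. RNA was taken after 8 days of culture in matrigel. Each allele was represented by 1 polyclonally selected line, so the wells are repeats of a line, and p-values measure the spread between wells. GDF11 was added only to the T288P line, so T288P+GDF11 and WT wells differ in both allele and ligand. The comparisons address whether either allele differs from wild type and what added GDF11 changes in T288P cells.

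Poly(A) RNA was sequenced to between 28452772 and 50760462 counts per library. The summed level of 8 breast epithelial markers (EPCAM, CDH1, TP63 and keratins), mostly KRT17 and KRT5, was between 3990 and 5210 CPM (counts scaled to the library total) in T288P+GDF11 wells, 5950 and 8220 in T288P wells, 5980 and 8650 in M452I wells and 7140 and 7370 in WT wells. The sum was therefore lower in every T288P+GDF11 well, which does not show that each marker was. Its part in the results below was not tested. The summed level of 6 fibroblast markers, mostly COL1A1, was 5.75 to 8.37 CPM in T288P+GDF11 wells and at most 5.74 CPM in the other wells; COL3A1 and LUM had no count. Of 5 leukocyte markers only CD68, at 98.4 to 230 CPM, was above 0.493 CPM. The summed level of the 5 was 98.7 to 126 CPM in T288P+GDF11 wells, 144 to 212 in T288P wells, 118 to 230 in M452I wells and 146 to 213 in WT wells. The summed level of 4 endothelial markers, mostly PECAM1, was 2.08 to 3.47 CPM in T288P+GDF11 wells and at most 1.24 CPM in the other wells. The part of these markers in the results was not tested either. PCSK5 itself was between 25.3 and 66.8 CPM; counts of the added alleles and of the edited locus cannot be told apart, so this does not check the labels. M452I replicate 4 and T288P replicate 1 stood apart from their groups. On the first principal component, with 27.1% of the variance, M452I replicate 4 was at 37.5 against -44.7 to -32.9 in the other M452I wells, and T288P+GDF11 wells were at 44.1 to 63.6. T288P replicate 1 was at -43 against 2.15 to 8.81 in the other T288P wells. By Pearson r of log2 CPM, T288P replicate 1 was closer to M452I replicates 1 to 3 (0.9727 to 0.9777) than to the other T288P wells (0.967 to 0.9699). M452I replicate 4 was closer to T288P replicates 2 to 4 (0.9692 to 0.9727) than to the other M452I wells (0.9581 to 0.9624). Whether wells were exchanged cannot be told from the labels, and comparisons that use these wells take the labels as given. Calls that change without both wells are named beside the result. In bulk RNA, fewer cells of a type and less RNA per cell cannot be told apart.

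Levels are CPM after TMM scaling of the libraries. A gene was called changed at a Benjamini-Hochberg adjusted p under 0.05 over the 16790 genes that passed a low-count filter, in edgeR's quasi-likelihood test. Of the 10 genes, 6 passed this filter (WNT4, WNT5A, WNT7A, WNT7B, FZD6 and FZD7) and 4 did not (WNT5B, WNT10A, FZD10 and AXIN2). With GDF11, 3 of the 6 changed in T288P cells: WNT7B fell, while WNT7A and WNT5A rose. Over all genes 12.9% were called in this comparison, 5.07% higher and 7.88% lower. The wells of T288P+GDF11 and T288P did not overlap for 4 of the 6 (the 3 called and FZD6), against 22% of all genes. The median log2 fold change of the 6 genes was 0.24, and that of all genes tested was -0.01. None of the 6 was called between M452I and WT or between T288P and WT.

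WNT7B, a ligand that can signal through beta-catenin, lies on the minus strand of chromosome 22 from 45920362 to 45977129 (GRCh38, GENCODE release 29; ENSG00000188064). It had 8.56, 13.1, 11.5 and 15.6 CPM in the T288P+GDF11 wells, against 33.7, 17.0, 33.3 and 26.7 CPM in the T288P wells. The M452I wells had 26.4, 29.4, 27.2 and 21.2 CPM, and the WT wells had 35.9, 23.9, 38.1 and 26.0 CPM. Every T288P+GDF11 well was thus below every well of the other 3 conditions, which overlapped each other. With GDF11, WNT7B averaged 12.2 ± 2.96 CPM in T288P+GDF11 wells and 27.7 ± 7.84 CPM in T288P wells (SD, n = 4 each), a log2 fold change of -1.18 (SE 0.22; 95% interval -1.64 to -0.72; edgeR adjusted p = 0.00239), or 2.27-fold lower. The same T288P+GDF11 wells were also lower than the WT wells by a log2 fold change of -1.35 (SE 0.22; edgeR adjusted p = 0.000271) and lower than the M452I wells by -1.1 (SE 0.22; edgeR adjusted p = 0.00258). These 3 calls were kept under every alternative tried and without any 1 well.

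**Figure D1:**
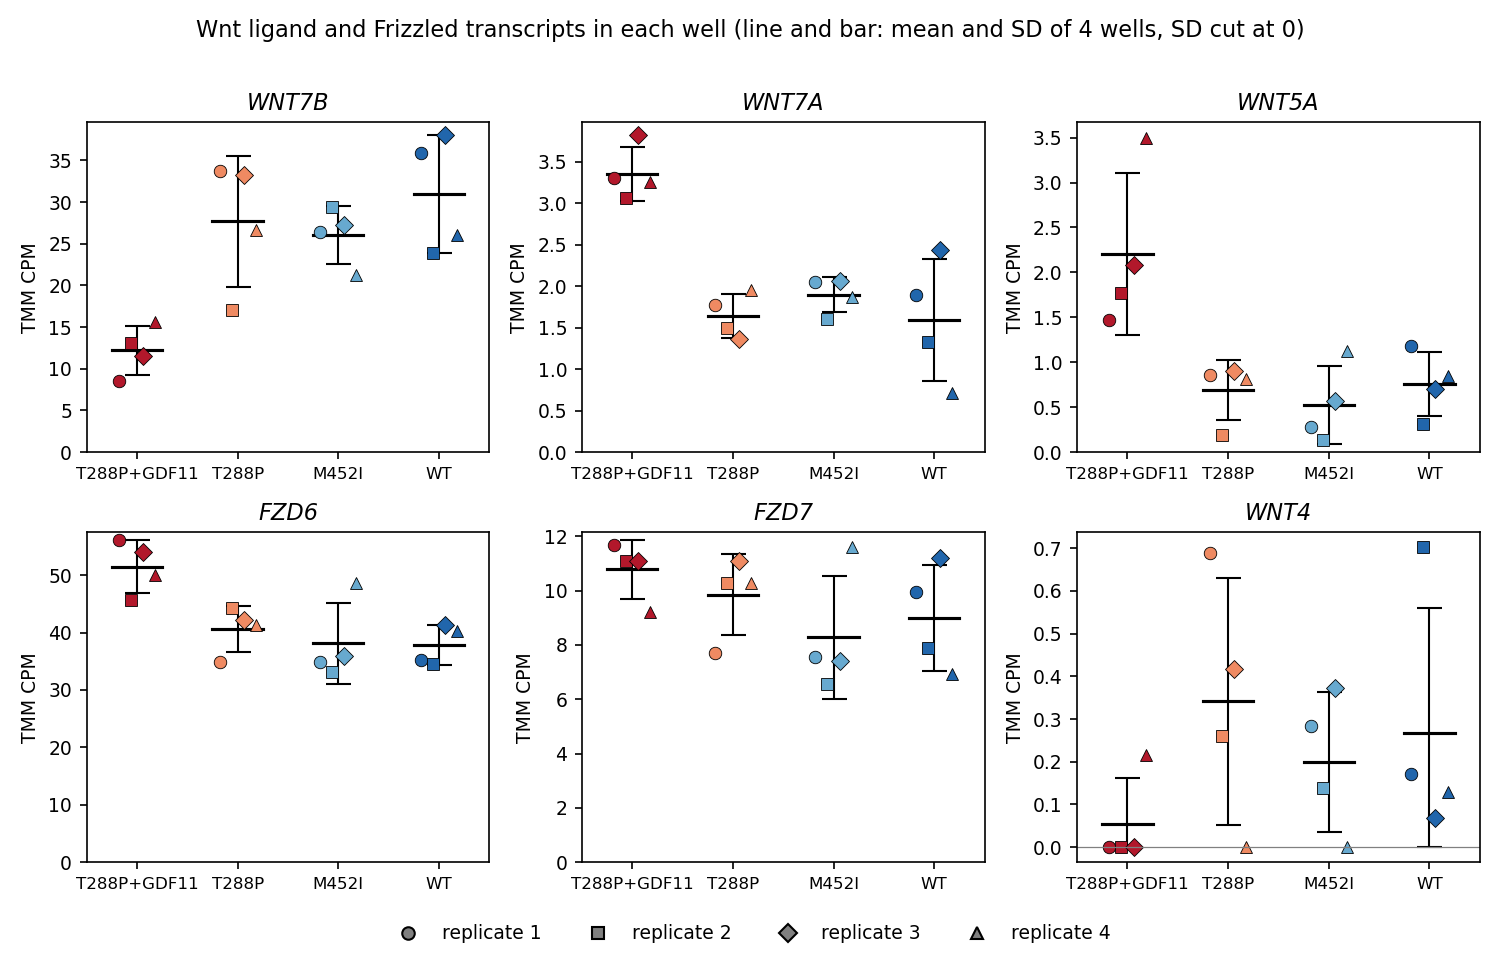
Levels of the 6 tested genes in each of 16 wells, in TMM-scaled CPM on linear axes, with the condition on the x axis, 1 marker shape per replicate number, and the mean and SD of 4 wells as lines (lower bars stop at 0). WNT7B is lower and WNT7A and WNT5A are higher in all 4 T288P+GDF11 wells than in any other well, FZD6 and FZD7 lie closer together, and M452I replicate 4 is the highest M452I well for both Frizzleds.

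WNT7A, the closest paralogue of WNT7B, lies on the minus strand of chromosome 3 from 13816258 to 13880121 (GRCh38; ENSG00000154764). It changed in the opposite direction. It had 3.30, 3.06, 3.82 and 3.25 CPM in the T288P+GDF11 wells, against 1.77, 1.49, 1.36 and 1.95 CPM in the T288P wells. The M452I wells had 2.05, 1.61, 2.06 and 1.87 CPM, and the WT wells had 1.89, 1.33, 2.43 and 0.715 CPM. All 4 T288P+GDF11 wells were above all 12 others. The mean was 3.36 ± 0.324 CPM in T288P+GDF11 wells and 1.64 ± 0.267 CPM in T288P wells (SD, n = 4 each), 2.04-fold higher, with a log2 fold change of 1.03 (SE 0.28; 95% interval 0.44 to 1.62; edgeR adjusted p = 0.0216). Without T288P replicate 3 or without T288P+GDF11 replicate 3 this call was lost, and the adjusted p reached 0.0664 at most when 1 well was left out. Against WT wells the log2 fold change was 1.07 (SE 0.28; edgeR adjusted p = 0.00796), and this call was kept without any 1 well. Against M452I wells it was 0.82 (SE 0.28; edgeR adjusted p = 0.0425), which was lost in 7 of the 8 fits that left out 1 well, with adjusted p up to 0.118, and with no low-count filter (0.0739).

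WNT5A, a ligand known mainly for beta-catenin-independent signalling, lies on the minus strand of chromosome 3 from 55465715 to 55490539 (GRCh38; ENSG00000114251). It was the scarcest of the 3 ligands that changed, with 602 counts over all libraries. It had 1.47, 1.77, 2.08 and 3.5 CPM in the T288P+GDF11 wells, against 0.854, 0.195, 0.905 and 0.809 CPM in the T288P wells. The M452I wells had 0.283, 0.139, 0.570 and 1.12 CPM, and the WT wells had 1.18, 0.312, 0.697 and 0.845 CPM. The lowest T288P+GDF11 well was above the highest well of each other condition. Means were 2.21 ± 0.898 CPM in T288P+GDF11 wells and 0.691 ± 0.333 CPM in T288P wells (SD, n = 4 each), a log2 fold change of 1.69 (SE 0.55; 95% interval 0.54 to 2.84; edgeR adjusted p = 0.0496), or 3.22-fold higher. This call was just inside the threshold and was lost when any 1 of the 8 wells was left out, with adjusted p between 0.0646 and 0.139, and with no low-count filter (0.0557), while the log2 fold change with 1 well left out was between 1.38 and 1.85. Against M452I wells the log2 fold change was 2.05 (SE 0.56; edgeR adjusted p = 0.0154; lost without M452I replicate 1 or 2 or T288P+GDF11 replicate 4, with adjusted p up to 0.0555). Against WT wells it was 1.54 (SE 0.54; edgeR adjusted p = 0.0397), and 5 of the 8 fits that left out 1 well lost that call, with adjusted p up to 0.128.

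The sequences before the annotated starts of WNT7A and WNT5A are shown because these were the 2 ligands that rose with GDF11, whose receptors signal through SMAD2 and SMAD3. Each is 250 bases of the gene's own strand ending just before the start in the RefSeq table (GRCh38.p14), with matches to AGAC, the core of the SMAD-binding element, in capitals on either strand. The WNT7A window is chr3:13880072-13880321 (minus strand), and the WNT5A window is chr3:55487307-55487556 (minus strand), the upstream one of 2 WNT5A windows in the table.
WNT7A: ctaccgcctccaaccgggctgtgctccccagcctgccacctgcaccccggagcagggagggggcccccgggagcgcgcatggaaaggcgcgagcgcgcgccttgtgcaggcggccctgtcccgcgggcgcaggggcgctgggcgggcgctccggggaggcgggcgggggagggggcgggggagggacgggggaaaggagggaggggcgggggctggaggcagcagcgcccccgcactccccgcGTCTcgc
WNT5A: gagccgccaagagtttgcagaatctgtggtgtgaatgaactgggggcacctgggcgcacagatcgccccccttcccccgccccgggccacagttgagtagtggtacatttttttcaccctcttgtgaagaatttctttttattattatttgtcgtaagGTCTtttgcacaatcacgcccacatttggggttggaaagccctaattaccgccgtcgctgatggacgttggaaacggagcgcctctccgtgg
WNT7A held 1 match, 7 bases before the RefSeq start, and WNT5A held 1 match, 92 bases before its own. Both matches, and the whole WNT5A window, lie inside the GENCODE loci given above, downstream of the outermost start of each gene. Such a match was present in 77.5% of 35116 windows of the same length, and across the 7 windows of the 5 genes found in the table (WNT4, WNT5A, WNT5B, WNT7A and WNT10A) 4 held at least 1. None of the 7 held the palindrome GTCTAGAC (0.182% of all windows), CAGACA (13.6%) or the TCF/LEF motifs CTTTGAT (2.26%) and CTTTGAA (3.8%), each searched on both strands. GTCTAGAC and CAGACA contain the AGAC core. G and C made up 80.4% of the WNT7A window and 52.8% of the WNT5A window.

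WNT4, the ligand tied to progesterone in the mouse gland, is on the minus strand of chromosome 1 from 22117305 to 22143969 (GRCh38; ENSG00000162552). It was close to the detection limit. The T288P+GDF11 libraries held 0, 0, 0 and 7 counts, against 21, 12, 12 and 0 in the T288P libraries. The M452I libraries held 8, 5, 17 and 0 counts, and the WT libraries held 6, 27, 3 and 4. Replicate 4 was the only T288P+GDF11 library with a count and the only T288P library without one, so the groups overlapped. The log2 fold change between T288P+GDF11 and T288P was -2.70 (SE 1.29; 95% interval -5.41 to 0.01; edgeR adjusted p = 0.179), and WNT4 was not called. Without T288P+GDF11 replicate 4 the group has no WNT4 count, and the adjusted p was 0.0433.

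WNT10A and WNT5B were too scarce for the test. WNT10A, a ligand of skin appendage and tooth development, lies on the plus strand of chromosome 2 from 218880363 to 218899581 (ENSG00000135925). It had 33 counts in all: 0, 5, 19 and 3 in T288P+GDF11 libraries, 2, 0, 0 and 0 in T288P libraries, 0, 4, 0 and 0 in M452I libraries and 0 in all 4 WT libraries. Most of them came from 3 of the 4 T288P+GDF11 wells. In a fit with no low-count filter the edgeR adjusted p was 0.351 for T288P+GDF11 against T288P wells and 0.0546 against WT wells. WNT5B (chromosome 12, 1529891 to 1647243, plus strand; ENSG00000111186), a close paralogue of WNT5A, had 4 counts in all, 2 in M452I replicate 4 and 2 in WT replicate 3. A library with no count allows up to 3 counts, which is between 0.065 and 0.106 CPM here and covers counting error only.

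**Figure D2:**
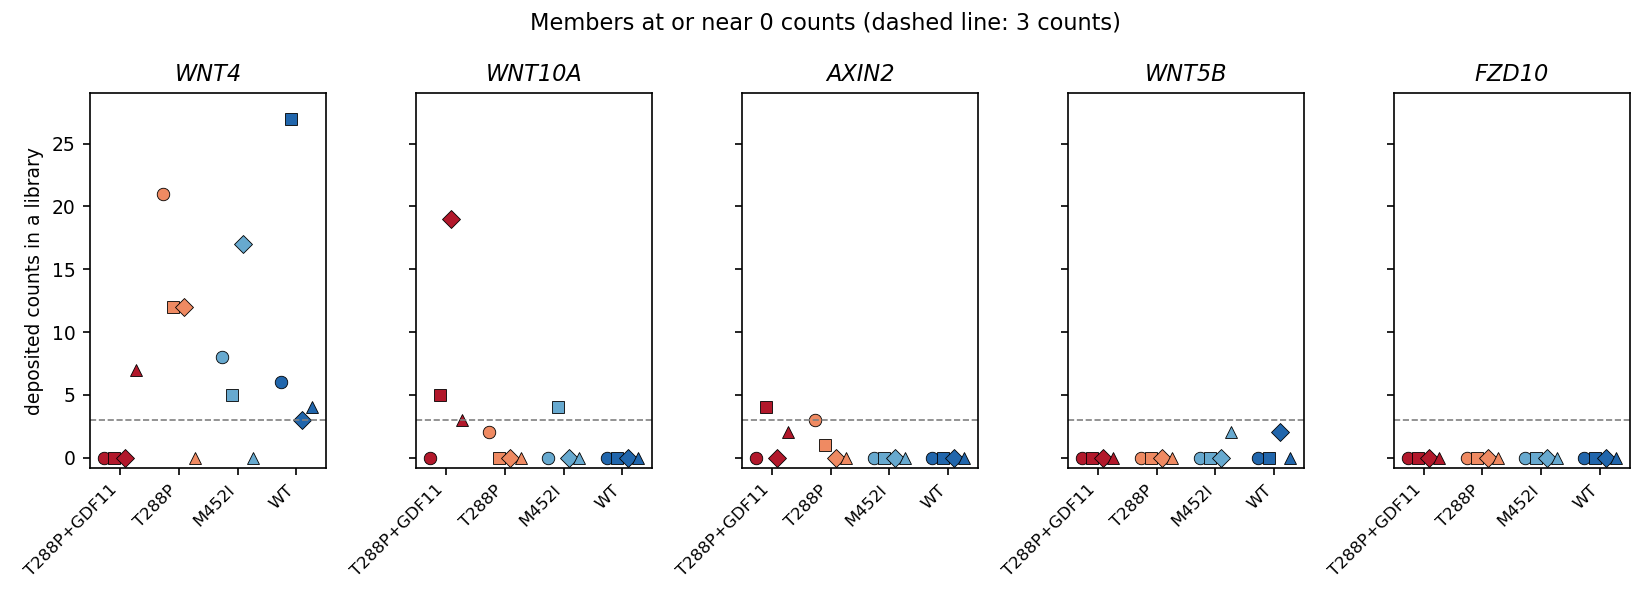
Deposited counts per library of the 5 scarcest of the 10 genes, with the condition on the x axis and 1 marker per well; the dashed line marks 3 counts, the limit that a count of 0 allows. WNT4 is at 0 in 3 of 4 T288P+GDF11 wells, most WNT10A counts lie in T288P+GDF11 wells, AXIN2 and WNT5B stay at 4 counts or fewer, and FZD10 is at 0 in all 16 wells.

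To compare levels between ligands, CPM was divided by the length of the gene's annotated exons in kb and summed over the 19 WNT genes of the table. WNT7B and WNT9A, a ligand outside the 10 genes, made up most of this sum in every well. WNT7B was 22.5 ± 2.60% of it in T288P+GDF11 wells, 41.0 ± 4.42% in T288P wells, 37.7 ± 2.94% in M452I wells and 38.4 ± 3.60% in WT wells (SD, n = 4 each). WNT7A was 7.05 ± 1.40% in T288P+GDF11 wells, against 2.84 ± 0.820% in T288P wells, 3.07 ± 0.556% in M452I wells and 2.12 ± 0.738% in WT wells. WNT5A was 2.75 ± 0.689% in T288P+GDF11 wells and between 0.549% and 0.675% on average in the other conditions. For all 3 ligands no T288P+GDF11 well overlapped a well without GDF11. Per kb of exon, WNT7B exceeded WNT7A by a factor of 3.33 ± 0.939 in T288P+GDF11 wells, 15.5 ± 5.30 in T288P wells, 12.6 ± 2.70 in M452I wells and 20.2 ± 8.58 in WT wells. The WNT9A share was 51.8 ± 2.18% in T288P+GDF11 wells, 44.3 ± 4.26% in T288P wells, 49.7 ± 3.36% in M452I wells and 51.5 ± 2.96% in WT wells. In CPM, WNT9A averaged 21.9 ± 3.87 in T288P+GDF11 wells and 23.6 ± 7.51 in T288P wells (log2 ratio -0.11, SE 0.19, edgeR adjusted p = 0.755). These shares restate the levels of the same genes and carry no test of their own.

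**Figure D3:**
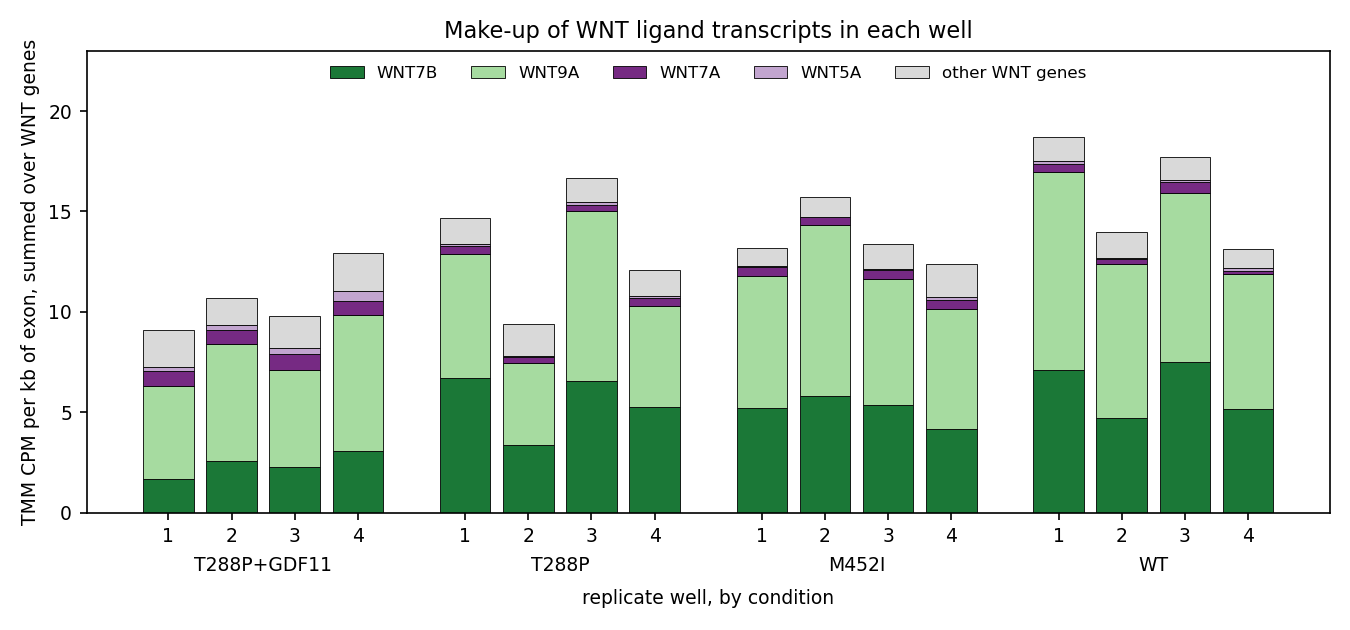
Stacked bars of TMM-scaled CPM per kb of exon for the WNT genes in each well, grouped by condition, with WNT7B, WNT9A, WNT7A, WNT5A and all other WNT genes as segments. The summed level is 9.08 to 12.9 in T288P+GDF11 wells and 9.42 to 16.7 in T288P wells; the WNT7B segment is smallest and the WNT7A and WNT5A segments are largest in T288P+GDF11 wells.

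Among the receptors, FZD6 and FZD7 were detected in every well and FZD10 in none. FZD6, a Frizzled best known for planar cell polarity, is on the plus strand of chromosome 8 (ENSG00000164930). It was the most abundant of the 10 genes per kb, with 12.7 ± 1.15 CPM per kb in T288P+GDF11 wells, 10.0 ± 0.995 in T288P wells, 9.38 ± 1.73 in M452I wells and 9.32 ± 0.852 in WT wells. In CPM it had 56.2, 45.6, 54.1 and 50.1 in the T288P+GDF11 wells, against 34.9, 44.2, 42.2 and 41.3 in the T288P wells. The M452I wells had 34.9, 33.1, 36.0 and 48.6 CPM, and the WT wells had 35.3, 34.5, 41.4 and 40.3 CPM. The T288P+GDF11 wells were above all T288P and WT wells, but M452I replicate 4 was above the lowest of them. FZD6 rose against WT wells (51.5 ± 4.67 CPM in T288P+GDF11 wells and 37.9 ± 3.46 CPM in WT wells; log2 ratio 0.44, SE 0.12, edgeR adjusted p = 0.00845), which held without any 1 well. It rose against M452I wells too (log2 ratio 0.43, SE 0.12, edgeR adjusted p = 0.0150). That call was lost without M452I replicate 2 or T288P+GDF11 replicate 1, with adjusted p up to 0.0539. With WNT7B, WNT7A and WNT5A this makes 4 of the 6 genes called between T288P+GDF11 and WT wells, 3 higher and 1 lower and all without overlap. Over all genes 28.9% were called there, 13.8% higher and 15.1% lower, and 35.1% did not overlap. The same 4 genes were called between T288P+GDF11 and M452I wells, 3 of them without overlap, against 21.2% called over all genes, 8.27% higher and 12.9% lower, and 18.8% without overlap. Against the T288P wells, with 40.6 ± 4.04 CPM, FZD6 was not called (log2 ratio 0.34, SE 0.12, 95% interval 0.10 to 0.59, edgeR adjusted p = 0.0605). It was called under DESeq2, with a filter of at least 50 counts in 4 libraries and in a fit of these 2 conditions only. Leaving out the 2 outlying wells, or T288P+GDF11 replicate 2, also gave a call. The exons of FZD6 share 138 bases with the antisense gene BAALC-AS1, and reads from both cannot be told apart unless strand was used in counting.

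FZD7, a Frizzled linked to beta-catenin signalling and basal-like breast cancer, is on the plus strand of chromosome 2 from 202034587 to 202038445 (ENSG00000155760). It had 11.7, 11.1, 11.1 and 9.23 CPM in the T288P+GDF11 wells, against 7.69, 10.3, 11.1 and 10.3 CPM in the T288P wells. The M452I wells had 7.56, 6.56, 7.41 and 11.6 CPM, and the WT wells had 9.95, 7.90, 11.2 and 6.92 CPM. All 4 conditions overlapped. With GDF11 the log2 fold change in T288P cells was 0.13 (SE 0.18; 95% interval -0.26 to 0.52; edgeR adjusted p = 0.686), an interval that leaves room for changes of either sign. FZD7 was not called in any of the 6 comparisons of conditions, but without M452I replicate 4, and without both outlying wells, it was called higher in T288P+GDF11 than in M452I wells (adjusted p as low as 0.00453). Without both wells 6941 of 17212 genes were called in that comparison, against 3558 of 16790 with all wells. FZD10 (chromosome 12, 130162459 to 130165740, plus strand; ENSG00000111432) had 0 counts in all 16 libraries.

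Per kb of exon the order of the tested genes was FZD6, then WNT7B and FZD7, then WNT7A, WNT5A and WNT4. WNT7B had 1.7 to 3.09 CPM per kb and FZD7 had 2.39 to 3.02 in T288P+GDF11 wells, where their ranges overlapped. In T288P wells WNT7B had 3.36 to 6.68 and FZD7 had 1.99 to 2.88 CPM per kb, which did not overlap. FZD6 was above both in every condition with no overlap. On average WNT7A was above WNT5A, 0.733 against 0.298 CPM per kb in T288P+GDF11 wells and 0.359 against 0.0934 in T288P wells, and their ranges overlapped only in WT wells.

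**Figure D4:**
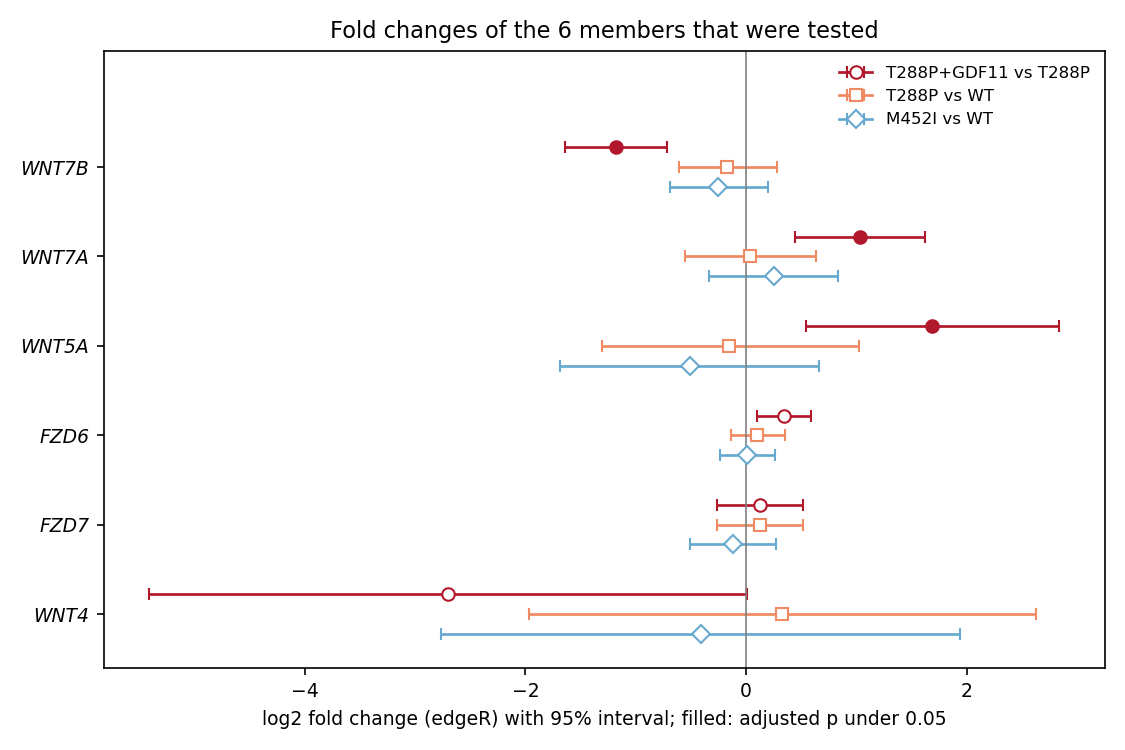
Log2 fold changes with 95% intervals of the 6 tested genes from edgeR, for T288P+GDF11 against T288P (circles), T288P against WT (squares) and M452I against WT (diamonds); filled symbols have an adjusted p under 0.05. Only the GDF11 comparison has filled symbols, for WNT7B (-1.18), WNT7A (1.03) and WNT5A (1.69), and the WNT4 intervals are the widest.

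No call was made between either allele and wild type. Between M452I and WT wells 0 of the 6 tested genes were called, by edgeR, DESeq2 or limma-voom, and none had an unadjusted p under 0.05 in edgeR. Over all genes 0.0238% were called and 6.3% had such a p. The log2 fold changes between M452I and WT wells were -0.25 for WNT7B (95% interval -0.69 to 0.20), 0.25 for WNT7A (-0.34 to 0.83), -0.51 for WNT5A (-1.69 to 0.66), 0.01 for FZD6 (-0.24 to 0.26) and -0.12 for FZD7 (-0.51 to 0.27). Between T288P and WT wells 0 of 6 were called by the same 3 tools, again with none at an unadjusted p under 0.05, against 0.0417% called and 8.49% at such a p over all genes. The values there were -0.17 for WNT7B (95% interval -0.61 to 0.28), 0.04 for WNT7A (-0.55 to 0.63), -0.15 for WNT5A (-1.31 to 1.02), 0.10 for FZD6 (-0.14 to 0.35) and 0.13 for FZD7 (-0.26 to 0.52). The intervals of WNT7B, WNT7A and both Frizzleds lay within 1 log2 unit of 0 in these comparisons, and those of WNT5A and WNT4 did not. Between M452I and T288P wells 0 of 6 were called by edgeR, with none at an unadjusted p under 0.05, against 0.00596% called and 2.18% at such a p over all genes. Without the 2 outlying wells FZD6 and FZD7 were called lower in M452I than in T288P wells, with log2 fold changes of -0.29 (adjusted p = 0.0416) and -0.56 (adjusted p = 0.0275), in a fit that called 2420 of 17212 genes in this comparison, against 1 of 16790 with all wells.

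AXIN2 encodes a scaffold of the destruction complex whose transcription is a standard readout of beta-catenin signalling. It lies on the minus strand of chromosome 17 from 65528563 to 65561647 (ENSG00000168646). It was nearly silent, with 10 counts in all: 0, 4, 0 and 2 in T288P+GDF11 libraries, 3, 1, 0 and 0 in T288P libraries and 0 in all M452I and WT libraries. No level, direction or pattern across wells can be read from these counts. In a fit with no low-count filter its edgeR adjusted p was 1 between T288P+GDF11 and T288P wells. Of 13 other genes often used as beta-catenin targets, 8 were tested, and 0 were called between T288P+GDF11 and T288P wells, where 12.9% of all genes were. Against WT wells DKK1 and TNFRSF19 were called higher, and against M452I wells DKK1 alone was (log2 ratio 0.66, SE 0.18, edgeR adjusted p = 0.0183). TNFRSF19 averaged 1.18 ± 0.547 CPM in T288P+GDF11 wells and 0.19 ± 0.149 CPM in WT wells (log2 ratio 2.6, SE 0.87, edgeR adjusted p = 0.0314). NKD2 and NOTUM had no count, SP5 had 3 and LGR5 had 77 counts in all. DKK1, a secreted LRP6 antagonist and beta-catenin target, averaged 79.7 ± 4.84 CPM in T288P+GDF11 wells and 57.2 ± 16 CPM in T288P wells (log2 ratio 0.48, SE 0.18, edgeR adjusted p = 0.0938). CCND1, the cyclin D1 gene, averaged 127 CPM in T288P+GDF11 wells and 139 CPM in T288P wells and was not called.

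The wider pathway was read from 10 lists holding 96 further genes once each, of which 65 were tested. Between T288P+GDF11 and T288P wells 6 were higher and 10 were lower, with 49 not called and a median log2 fold change of -0.03. The 16 calls are a share of the 65 that can be set beside the 12.9% called over all genes, 5.07% higher and 7.88% lower. No list was tested as a set. Between M452I and WT wells 0 were called, although 9 had an unadjusted p under 0.05 (6.3% over all genes) and DESeq2 called 1, BCL9L, among 30 genes in all. Between T288P and WT wells 0 were called, with 10 at an unadjusted p under 0.05 (8.49% over all genes) and 2 called by DESeq2, BCL9 and BCL9L, among 80 genes in all. Without the 2 outlying wells edgeR called 4 of these genes in each of the 2 comparisons, where it called 640 (M452I against WT) and 698 (T288P against WT) of 17212 genes in all.

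The secreted antagonist SFRP1, which binds Wnt ligands, had the smallest adjusted p of the pathway genes. It had 218, 161, 195 and 158 CPM in T288P+GDF11 wells, against 72.5, 100, 95.5 and 102 CPM in T288P wells. Every T288P+GDF11 well was above every other well (a log2 difference of 0.98 with an SE of 0.16; edgeR adjusted p = 0.00117), and M452I replicate 4, at 124 CPM, was the highest well without GDF11. SFRP1 was the only called gene of the 6 tested secreted inhibitors and Dickkopf receptors. 9 of the 15 in that list, among them SFRP2, DKK4 and SOST with no count, were not tested.

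Other receptors moved both ways. Of the 6 other Frizzleds tested, FZD3 rose, with 22.7, 14.7, 16.4 and 19.3 CPM in T288P+GDF11 wells, against 6.73, 10.9, 9.99 and 11.2 CPM in T288P wells (log2 ratio 0.91, SE 0.25, edgeR adjusted p = 0.0258). FZD5 fell, with 8.33, 5.93, 5.21 and 5.11 CPM in T288P+GDF11 wells, against 10.7, 8.21, 10.1 and 10.8 CPM in T288P wells (log2 ratio -0.70, SE 0.16, edgeR adjusted p = 0.0083). The FZD3 groups did not overlap, while the FZD5 groups overlapped through 1 well each; M452I replicate 4 had 19.7 CPM of FZD3, within the T288P+GDF11 range. Of 5 tested co-receptors 3 rose, where 5.07% of all genes were called higher. They were the kinase-like receptors ROR1 (log2 ratio 0.80, edgeR adjusted p = 0.0401), RYK (0.26, adjusted p = 0.0215) and PTK7 (0.29, adjusted p = 0.0441). ROR1 averaged 5.12 CPM in T288P+GDF11 wells and 2.93 CPM in T288P wells. LRP5 and LRP6 were not called, and ROR2 had no count. The PTK7, ROR1, FZD3 and RYK calls were lost in 7, 5, 4 and 2 of the 8 fits that left out 1 well, T288P replicate 1 among them each time. All 4 were lost with no low-count filter, and PTK7 and ROR1 also without the 2 outlying wells.

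PRICKLE2, a planar cell polarity gene, had the largest fold change of the pathway calls. It had 6.33, 4.81, 4.39 and 3.53 CPM in T288P+GDF11 wells, against 0.887, 1.39, 2.23 and 1.83 CPM in T288P wells, with no overlap (log2 ratio 1.59, SE 0.36, edgeR adjusted p = 0.00777). None of the other 8 tested genes of that list was called; VANGL1 averaged 19.5 CPM in T288P+GDF11 wells and 14.3 CPM in T288P wells (adjusted p = 0.0832). PORCN, the acyltransferase that adds the lipid Wnt ligands need for secretion, fell. It had 11.5, 13.5, 14.5 and 14.8 CPM in T288P+GDF11 wells, against 30.5, 19.4, 20.8 and 20.3 CPM in T288P wells (log2 ratio -0.74, SE 0.18, edgeR adjusted p = 0.0111; 0.0581 without T288P replicate 1). WLS, the carrier of Wnt ligands to the cell surface, averaged 31.6 CPM in T288P+GDF11 wells and 33.1 CPM in T288P wells and was not called. LGR4, a receptor for R-spondins, fell as well, with 34.6 CPM in T288P+GDF11 wells and 44.9 CPM in T288P wells on average (log2 ratio -0.38, SE 0.09, edgeR adjusted p = 0.00944), while RSPO1, RSPO2, RSPO3 and RSPO4 had no count.

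Of 13 tested Dishevelled and destruction complex genes 4 fell, where 7.88% of all genes were called lower. They were AXIN1 (log2 ratio -0.47, edgeR adjusted p = 0.00592), GSK3B (-0.37, adjusted p = 0.00531), TNKS (-0.33, adjusted p = 0.0164) and GSK3A (-0.34, adjusted p = 0.0453). AXIN1, the constitutive relative of AXIN2, had 29.5, 37.9, 30.9 and 31.6 CPM in T288P+GDF11 wells, against 50.2, 39.8, 46.6 and 43.9 CPM in T288P wells, without overlap. Of 14 nuclear effectors 3 fell, beside the same 7.88%: the beta-catenin co-activators BCL9L (log2 ratio -0.45, edgeR adjusted p = 0.00173) and BCL9 (-0.41, adjusted p = 0.0404) and the co-repressor TLE1 (-0.37, adjusted p = 0.0302). BCL9L averaged 77.1 ± 2.99 CPM in T288P+GDF11 wells, 105 ± 11.8 CPM in T288P wells, 111 ± 4.58 CPM in M452I wells and 139 ± 6.88 CPM in WT wells. CTNNB1, the beta-catenin gene, averaged 211 ± 5.74 CPM in T288P+GDF11 wells and 238 ± 16.1 CPM in T288P wells, which did not overlap but were not called (adjusted p = 0.238). The calls for GSK3A, BCL9, TLE1 and TNKS were lost in 7, 6, 6 and 2 of the 8 fits that left out 1 well, and those for AXIN1, GSK3B and BCL9L in none. With no low-count filter all 4 of the first were lost, and in the fit of 2 conditions all but TLE1. GSK3A was also lost under limma-voom and RLE scaling, and BCL9 without the 2 outlying wells.

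**Figure D5:**
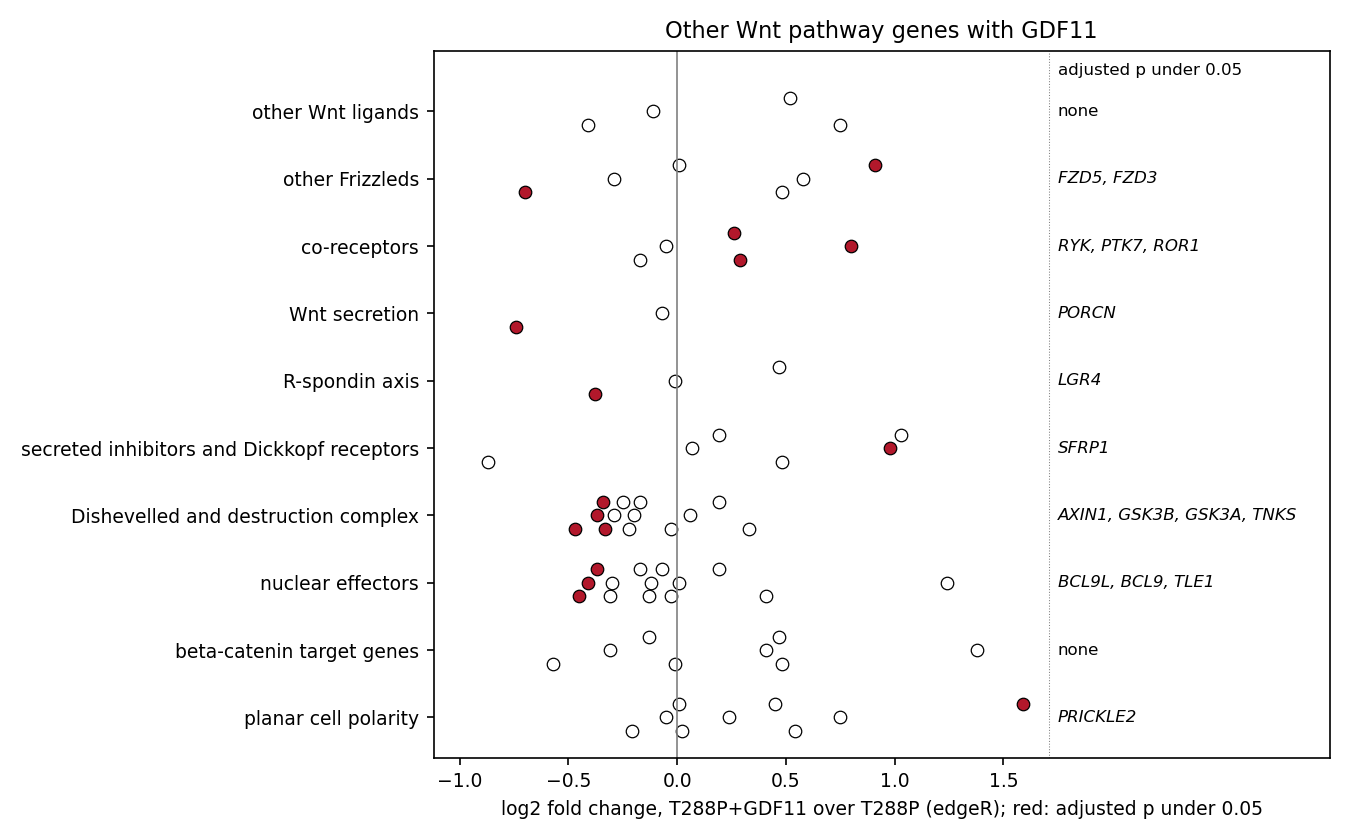
Log2 fold changes of 65 other Wnt pathway genes between T288P+GDF11 and T288P wells from edgeR, 1 row per list and 1 point per gene (a gene in 2 lists appears in both); red points have an adjusted p under 0.05 and are named at the right in rising order of fold change. Calls in the destruction complex and nuclear rows all lie left of 0, those among co-receptors lie right of 0, and the ligand and beta-catenin target rows have none.

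The genes whose levels followed WNT7B most closely were ranked by Pearson r of log2 CPM over all 16 wells among 10433 genes with a symbol and a mean of at least 3 CPM. The first 5 were PAQR5, a membrane progestin receptor, SLC6A8, the creatine transporter, SLC2A1, the glucose transporter GLUT1, OVOL1, an epithelial zinc-finger factor, and PLEKHM1, a lysosomal adaptor. Over the 12 wells without GDF11 alone their r with WNT7B was 0.852, 0.924, 0.827, 0.821 and 0.801 in that order. Over all 16 wells, of which the T288P+GDF11 wells had the lowest WNT7B, it was between 0.953 and 0.967. The 12 wells are among the 16 by which the genes were chosen, so their r is not free of that choice. These values describe wells that share lines and medium and are given without a test. Because the ranking used the T288P+GDF11 wells, in which WNT7B was low, the direction of these genes with GDF11 is part of the choice; their log2 fold changes were between -1.25 for OVOL1 and -0.61 for PAQR5 and SLC6A8. No such ranking is given for AXIN2, which had too few counts.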

How the data were processed

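RNA of 16 wells (4 per condition) was sequenced as read pairs after poly(A) selection, per the labels' protocols. The authors deposited whole-number counts per gene for all wells; HISAT2, StringTie 2.2.1 and the build GRCh38 are named in the submitters' processing notes, and for the annotation release, strand setting and treatment of read mates the labels give nothing. From these counts edgeR 4.0.16 (R 4.3.3) computed TMM factors, CPM and a robust quasi-likelihood F test in 1 model of all 16 libraries without covariates, after filterByExpr with a minimum count of 10; 16790 of 78894 genes were tested, with Benjamini-Hochberg adjustment over them. SEs are the log2 fold change over the square root of F. Libraries held 28452772 to 50760462 counts. Exon lengths and loci come from GENCODE release 29 (GRCh38), matched by gene ID. Alternatives were DESeq2 1.42.0, limma-voom (limma 3.58.1), RLE factors, no filter, 50 counts in 4 libraries, fits of 2 conditions only, a replicate block and leaving out each well; leaving out both outlying wells was added after the data were seen. No 2 libraries held the same values. Scripts were tested on simulated data.

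The 10 genes, the 10 pathway lists, the marker lists and the motifs were chosen with earlier results of these data known. Named in the text are the 10 genes, up to 3 called genes per list with the smallest adjusted p (GSK3A, which was called, and pathway genes given as not called or called only against WT or M452I, such as DKK1, CTNNB1 and WNT9A, were named after their values were seen), and the 5 genes most like WNT7B, the gene of the 10 with the smallest adjusted p with GDF11.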

Additional observations from a re-analysis of the deposited data

Results flagged for a closer look

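Outlying wells were looked for in 100 groups of 4 wells, over the 10 genes and the named pathway genes, by the gap of the farthest well over the group's range against Dixon's 95% critical value. 11 groups had a well beyond it. Chance gives about 1 in 20 for normally distributed values, a rate that does not hold for counts near 0. A group with 1 well above 0 and the other 3 at 0 always passes, and a group with 4 equal wells never can. No excess over chance can therefore be read from the 11. Of the WNT ligands, WNT4 was at 0.217 CPM (7 counts) in T288P+GDF11 replicate 4 and at 0 in the other 3 wells, and at 0.702 CPM (27 counts) in WT replicate 2, against 0.0675 to 0.172 CPM in the other WT wells. WNT5A was at 0.195 CPM in T288P replicate 2, against 0.809 to 0.905 CPM in the other T288P wells. WNT5B was at 0.0603 CPM in M452I replicate 4 and at 0.045 CPM in WT replicate 3, and WNT10A at 0.0657 CPM in T288P replicate 1 and 0.111 CPM in M452I replicate 2, with 2 to 4 counts each and 0 in the other wells of the group. T288P replicate 1 stood above its group in BCL9L, at 123 CPM against 97.7 to 102, and in PORCN, at 30.5 CPM against 19.4 to 20.8. LGR4 was at 53.1 CPM in M452I replicate 1, against 44.7 to 45.4, and TLE1 at 23.8 CPM in M452I replicate 4, against 30.9 to 31.2 in the other M452I wells.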

How the results depend on the processing

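Over 564 refits of the 36 fold changes of tested genes, 496 kept direction and side of the threshold, 30 lost a call, 11 gained one and 27 changed sign. None of the sign changes involved a called value, and the causes were not tested. Without the 2 outlying wells 2 genes (FZD6, FZD7) were called between M452I and T288P wells, among 2420 genes in all against 1 with all wells; between M452I and WT wells 640 genes were called in all against 4. When 1 well was left out, between 1 and 3 of the genes were called for T288P+GDF11 against T288P and between 1 and 5 against M452I. Over all genes these fits called 1028 to 1912 against T288P and 1661 to 6578 against M452I. The 5 came without M452I replicate 4, where 6578 of 17278 genes were called in all. Other pathway genes called between T288P+GDF11 and T288P numbered 8 with no low-count filter, where 1391 of 38896 genes were called in all, and 9 to 14 when 1 well was left out. Between M452I and WT there was 1 under DESeq2 and 4 without the outlying wells; between T288P and WT there were 2 and 4, and 0 to 2 when 1 well was left out. Sign changes for FZD6 between M452I and WT were -0.01 under DESeq2, RLE, no filter and the fit of 2 conditions, 0 after rounding under limma-voom and -0.13 without the outlying wells. WNT4 between T288P and WT was -0.08 under limma-voom and -0.26 without the outlying wells, where WNT7A was 0 after rounding; without them WNT4 was 0.25 and WNT7B 0.12 between M452I and T288P. When 1 well was left out, M452I minus WT values ranged from -0.95 to 0.71 for WNT4, -0.13 to 0.07 for FZD6 and -0.33 to 0 for FZD7; T288P minus WT values from -0.25 to 1.45 for WNT4, -0.40 to 0.18 for WNT5A, -0.19 to 0.32 for WNT7A and -0.27 to 0.01 for WNT7B; and M452I minus T288P values from -0.26 to 0.02 for WNT7B. Deviations of same-numbered wells were at most weakly correlated (-0.197 to 0.174). No pairing by number was seen, but 4 wells per group cannot show that it is absent. With a replicate block 3, 4 and 3 of the genes were called for T288P+GDF11 against T288P, WT and M452I (WNT7A lost against M452I, edgeR adjusted p = 0.0509). Genes called in all were then 1836, 4566 and 3164, against 2174, 4846 and 3558 without the block. Of the other pathway genes 12 were called against T288P with the block (ROR1, PTK7, GSK3A and BCL9 lost). WNT4 did not pass the filter under 50 counts in 4 libraries.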

Other observations

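Some pathway genes were called only when T288P+GDF11 wells were set against WT or M452I wells, comparisons that share the T288P+GDF11 wells with the one against T288P. DKK1 averaged 79.7 ± 4.84 CPM in T288P+GDF11 wells, 57.2 ± 16 in T288P wells, 50.4 ± 12.3 in M452I wells and 37.5 ± 5.17 in WT wells (SD, n = 4 each), and it was higher in T288P+GDF11 than in WT wells by a log2 fold change of 1.09 (SE 0.19; edgeR adjusted p = 0.000436). WNT9A, the other abundant ligand, was at 21.9 ± 3.87 CPM in T288P+GDF11 wells and 32.4 ± 5.19 CPM in WT wells (log2 ratio -0.57, SE 0.19, edgeR adjusted p = 0.0312). CTNNB1 was at 211 ± 5.74 CPM in T288P+GDF11 wells and 267 ± 14.1 CPM in WT wells (log2 ratio -0.34, SE 0.09, edgeR adjusted p = 0.0109). FZD4, a Frizzled that also binds norrin, was at 6.44 ± 1.05 CPM in T288P+GDF11 wells and 9.95 ± 1.15 CPM in WT wells (log2 ratio -0.63, SE 0.14, edgeR adjusted p = 0.00327). Against M452I wells DKK1 was also called higher (log2 ratio 0.66, SE 0.18, edgeR adjusted p = 0.0183) and CTNNB1 lower (-0.26, SE 0.09, adjusted p = 0.049). WNT9A and FZD4 were not called against M452I wells (edgeR adjusted p = 0.245 and 0.388). Of the 65 tested pathway genes 9 were higher and 18 lower in T288P+GDF11 than in WT wells, and 7 higher and 12 lower than in M452I wells, where 28.9% and 21.2% of all genes were called. In DKK1, WNT9A, CTNNB1 and FZD4 the T288P wells lay on average between the T288P+GDF11 and WT wells; for these 4 genes the differences between T288P and WT wells were not called (edgeR adjusted p from 0.388 to 0.646).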
